A study of Mus musculus with 12 samples.

Results

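De novo fatty acid synthesis builds fatty acids from acetyl-CoA in the cytosol, and 9 genes of this route were followed among the 27179 genes counted. They were chosen by symbol from the pathway's known roles, and all 9 were found and passed the filter on low counts. Slc25a1, Acly and Acss2 supply the carbon, Me1 supplies NADPH, Acaca and Fasn build the chain, Olah ends it, and Thrsp and Srebf1 are regulators. RNA sequencing counted reads per gene in luminal and basal cells sorted by flow cytometry from mammary glands of untreated wild-type FVB/N female mice. The animals were virgin, at day 18.5 of pregnancy or at day 2 of lactation, and ages were not given in the sources used here. Each of the 6 groups (luminal virgin, luminal pregnant, luminal lactating, basal virgin, basal pregnant, basal lactating) held 2 libraries. The design gives 2 mice per stage, and nothing in the labels ties a library to a mouse, so p-values measure the spread between these libraries, which may in part be technical.

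Luminal cells line the ducts and alveoli and, in the lactating gland, secrete milk. Basal cells form the outer, contractile layer. In the fatty acid pathway, citrate leaves the mitochondrion and is cleaved to acetyl-CoA, which is carboxylated to malonyl-CoA and then joined into a chain at the expense of NADPH. The lactating mammary epithelium is known for making medium-chain fatty acids this way, because a separate thioesterase releases the chain early.

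The genes lie on 5 chromosomes (RefSeq, GRCm38.p6). Slc25a1 (Entrez 13358) encodes the mitochondrial citrate carrier and lies on chromosome 16 from 17925211 to 17928219, on the minus strand. Acly (104112), ATP citrate lyase, lies on chromosome 11 from 100476352 to 100528000, on the minus strand. Acss2 (60525), the cytosolic acetyl-CoA synthetase that activates acetate, lies on chromosome 2 from 155518043 to 155562743, on the plus strand. Me1 (17436), the cytosolic malic enzyme, lies on chromosome 9 from 86581363 to 86695914, on the minus strand. Acaca (107476), acetyl-CoA carboxylase alpha, lies on chromosome 11 from 84129635 to 84401651, on the plus strand. Fasn (14104), fatty acid synthase, lies on chromosome 11 from 120805958 to 120825166, on the minus strand. Olah (99035), the medium-chain thioesterase, lies on chromosome 2 from 3341987 to 3366569, on the minus strand. Thrsp (21835), a small protein that promotes lipogenesis, lies on chromosome 7 from 97412933 to 97417550, on the minus strand. Srebf1 (20787), the transcription factor SREBP-1, lies on chromosome 11 from 60199084 to 60224186, on the minus strand.

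Counts of 4 of these genes could be shared with other genes. Acaca has a near-identical processed pseudogene, Gm5182, which matched over 6118 bases at 99.2% identity. Me1 has the processed pseudogene Gm7049, which matched over 1638 bases at 98.5%. Exons of other genes overlap 9.1% of the exon bases of Acss2, among them the antisense gene Acss2os, and 3.1% of those of Srebf1. The counts of these genes are uncertain to that extent, since the strand setting and the treatment of reads with several positions were not given in the sources used here.

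The sequence before the start site is shown for 4 of the 9 genes. RefSeq holds 12 promoter windows for the 9 genes, each from 250 bases before to 50 bases after a transcript start, among 32851 windows of that length (300 bases) in all. Of the 12, 3 belong to Srebf1 and 2 to Me1. The CCAAT box (CCAAT, or ATTGG on the other strand) was in 8 of the 12 windows and in 37.4% of all windows. The GC box (GGGCGG, both strands) was in 6 of the 12 and in 35.7% of all. The E-box CACGTG was in 1 of the 12, that of Slc25a1, and in 7.15% of all. A sterol response core (TCACNCCAC, both strands) was in 0 of the 12 and in 1.24% of all, and a STAT motif (TTCNNNGAA) was in 0 of the 12 and in 8.3% of all. Each run below holds the 150 bases before the start site, 5′ to 3′ on the gene's strand, with CCAAT boxes in capitals and GC boxes left in lower case.
Fasn, chr11:120824548-120824697, minus strand: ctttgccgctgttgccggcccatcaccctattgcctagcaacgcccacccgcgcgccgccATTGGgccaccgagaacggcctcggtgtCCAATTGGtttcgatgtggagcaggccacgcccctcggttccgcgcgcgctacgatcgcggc
Thrsp, chr7:97417551-97417700, minus strand: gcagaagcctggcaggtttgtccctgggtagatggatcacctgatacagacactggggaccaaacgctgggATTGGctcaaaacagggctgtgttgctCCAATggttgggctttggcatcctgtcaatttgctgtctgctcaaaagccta
Slc25a1, chr16:17928220-17928369, minus strand: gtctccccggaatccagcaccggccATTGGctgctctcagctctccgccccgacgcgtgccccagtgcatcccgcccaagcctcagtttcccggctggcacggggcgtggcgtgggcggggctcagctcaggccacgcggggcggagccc
Olah, chr2:3366570-3366719, minus strand: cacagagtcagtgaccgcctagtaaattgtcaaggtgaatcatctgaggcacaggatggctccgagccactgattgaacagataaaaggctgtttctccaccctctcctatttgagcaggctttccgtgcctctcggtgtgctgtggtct
In Fasn, 1 box starts 90 bases before the start site, and a box on each strand, starting at 62 and at 59 bases before it, overlap. Thrsp has boxes at 79 and 52 bases before the start site, and Slc25a1 has 1 at 125 bases within the stretch shown. The windows of Olah and Acaca hold none of the 5 motifs, and Olah is shown for that reason. The only window of Acaca, from 84195188 to 84195487 on chromosome 11, lies inside the gene, whose span starts at 84129635. The sequence before that end of Acaca was not scanned. A match is a description of these letters only.

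Libraries held 20.02 M to 24.72 M counts. The run names put all luminal libraries in lane 1 and all basal libraries in lane 2, so cell type and lane cannot be told apart. By summed level, the sorted cells carried the markers of their labels. The 8 basal markers summed to 64.5 to 406 CPM (the usual rate of a gene's count to the library total, here the TMM-scaled total) in luminal libraries and to 16248 to 48244 in basal libraries, and the 8 luminal markers to 5199 to 11632 in luminal and 1510.0 to 2318 in basal libraries. Single keratins separated the cell types less well in lactation. Krt8 was at 3001 and 3336 CPM in luminal virgin but at 1026 and 701 in luminal lactating libraries, against 921 and 720.2 in basal lactating ones. Krt19 was at 574 and 556 CPM in luminal and at 449 in both basal lactating libraries, and Krt18 at 587 and 438 and at 66.1 and 64.9. In luminal libraries, the 8 milk protein genes took 0.586% and 0.734% of all counts before pregnancy, 16.3% and 19.0% late in pregnancy, and 46.6% and 45.2% on day 2 of lactation. TMM scaling, which matches the bulk of genes between libraries, therefore gives higher luminal levels in lactation than the library total does. Using the library total alone moved the centre of all genes (the median log2 change) by -0.50 at the luminal pregnancy step and by -0.85 at the luminal lactation step, relative to TMM.

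All 9 genes rose in luminal cells at both steps. Every pregnant luminal library lay above both virgin libraries and every lactating library above both pregnant ones for each of the 9, an order that 13.8% of all genes tested showed. From virgin to pregnant, 9 of 9 were called higher (background, 21.8% of 15969 genes called higher by edgeR at an adjusted p below 0.05), with a median log2 change of 1.79 against -0.04 over all genes. From pregnant to lactating, 9 of 9 were called higher (background, 23.7%), with a median of 2.45 against 0.00. From virgin to lactating, 9 of 9 were called higher (background, 26.7%), with a median of 4.55 against -0.15. Together the 9 genes took 0.112% and 0.113% of all luminal counts in virgin mice, then 0.416% and 0.390% in pregnancy, then 1.01% and 1.21% in lactation, shares that use no scaling factor. With the library total alone all 9 still had positive changes at each step, with medians of 1.29 and 1.59, and 2 of the 9 were no longer called at the pregnancy step (Slc25a1, 0.28, adjusted p = 0.0945, and Srebf1, 0.45, adjusted p = 0.149). In sorted bulk samples, a change in the make-up of the luminal population and a change in RNA per cell cannot be told apart.

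**Figure D1:**
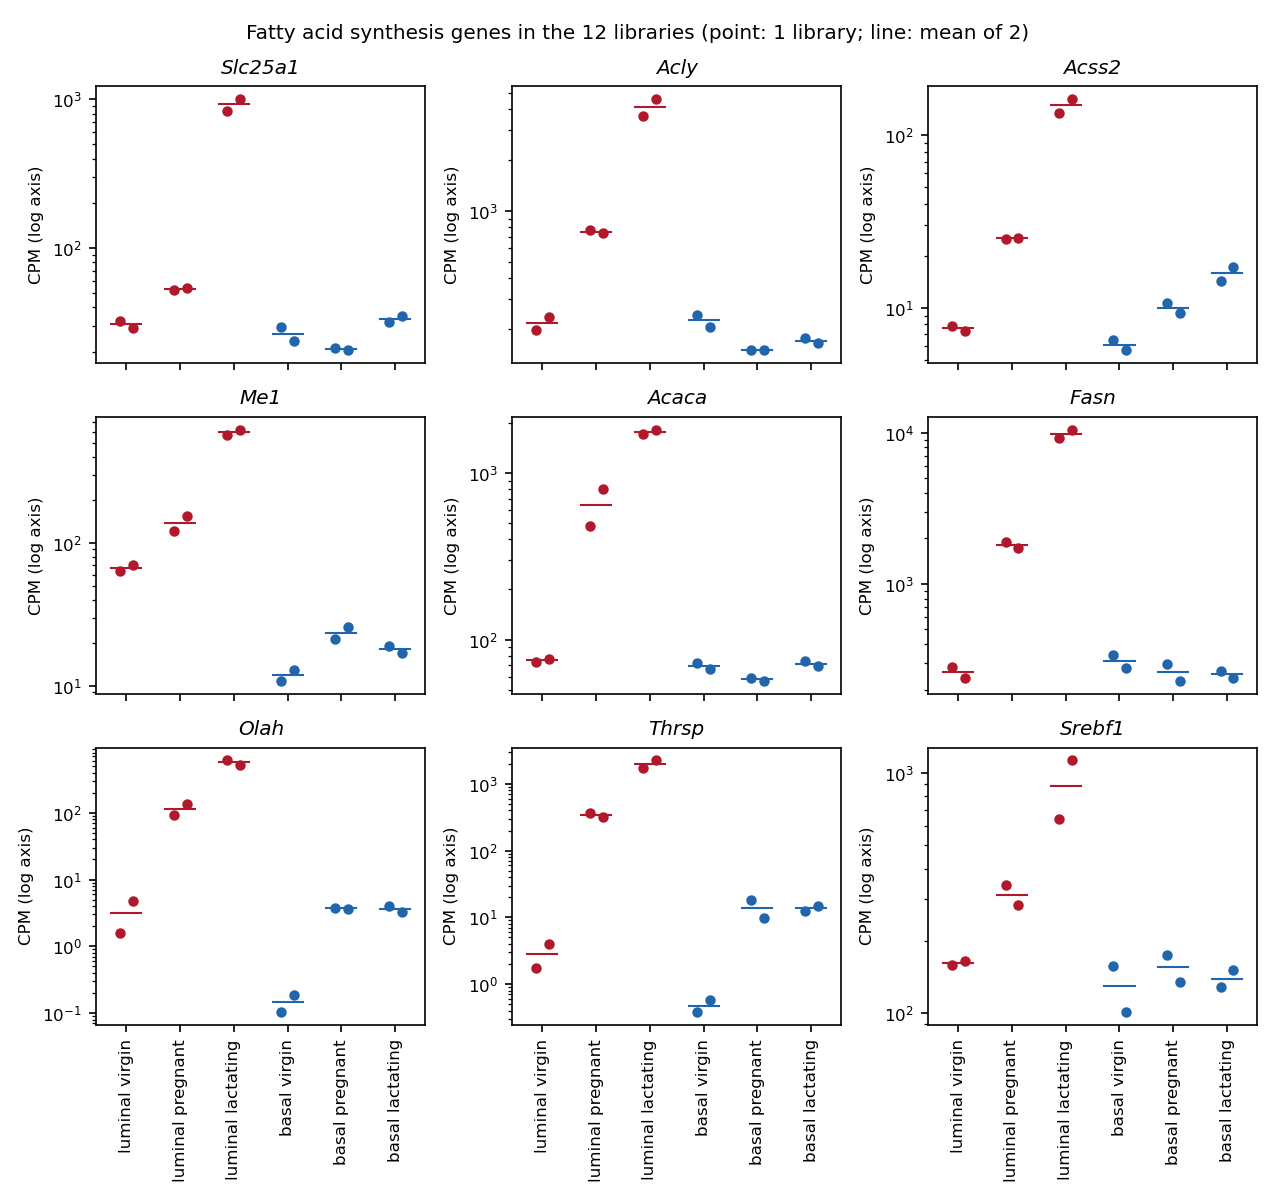
Level of each of the 9 genes in CPM (log axis, TMM-scaled) in the 6 groups. Points are single libraries and lines are means of 2; luminal libraries are red and basal libraries blue. All 9 climb from virgin to lactating in luminal cells, and Olah and Thrsp are the genes with the largest climb in basal cells.

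Among the carbon suppliers, Slc25a1 kept a low level in pregnancy and then rose steeply. Slc25a1 was at 32.2 and 29.2 CPM in luminal virgin, 52.1 and 53.7 in luminal pregnant, and 839 and 1013 in luminal lactating libraries. Its log2 change was 0.78 (SE 0.13, adjusted p = 3.17e-04) at the pregnancy step and 4.13 (SE 0.14, adjusted p = 3.11e-09) at the lactation step, the largest lactation step of the 9. No luminal library of a stage overlapped with one of another stage. Acly was at 198 and 236 CPM in luminal libraries of virgin mice, 765 and 738 in those of pregnant mice, and 3626 and 4604 in those of lactating mice. It rose by 1.79 (SE 0.15, adjusted p = 1.11e-06) and then by 2.45 (SE 0.15, adjusted p = 1.45e-07). Acss2, which draws on acetate and not on citrate, was the scarcest of the 3, also per gene length. It was at 7.85 and 7.36 CPM in luminal libraries of virgin mice, 25.0 and 25.4 in those of pregnant mice, and 134 and 162 in those of lactating mice. It rose by 1.73 (SE 0.14, adjusted p = 8.49e-07) and then by 2.55 (SE 0.13, adjusted p = 4.44e-08), so that both routes to cytosolic acetyl-CoA were higher at each stage.

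Me1, which makes NADPH from malate, had a smaller total rise (3.15) than the carbon suppliers (4.25 to 4.91). It was at 63.7 and 69.6 CPM in luminal libraries of virgin mice, 121 and 154 in those of pregnant mice, and 564 and 621 in those of lactating mice. It rose by 1.04 (SE 0.14, adjusted p = 7.52e-05) and then by 2.11 (SE 0.15, adjusted p = 3.11e-07). The stages did not overlap.

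The chain-building genes had risen strongly by the end of pregnancy. Acaca, whose product makes malonyl-CoA in the rate-limiting step, was at 73.7 and 76.4 CPM in luminal libraries of virgin mice, 483 and 806 in those of pregnant mice, and 1703 and 1821 in those of lactating mice. The 2 pregnant libraries differed more from each other than did the pairs of the other stages. Acaca rose by 3.10 (SE 0.20, adjusted p = 1.27e-07) and then by 1.45 (SE 0.18, adjusted p = 3.82e-05), a lactation step like that of Srebf1 (1.51, SE 0.25) and below the estimates for the other 7 genes. Fasn, which joins the malonyl units, was at 281 and 240.3 CPM in luminal libraries of virgin mice, 1893 and 1716 in those of pregnant mice, and 9224 and 10508 in those of lactating mice. It rose by 2.79 (SE 0.18, adjusted p = 1.23e-07) and then by 2.45 (SE 0.17, adjusted p = 3.74e-07). Fasn alone took 0.488% and 0.563% of all counts in the lactating luminal libraries, which was 48.3% and 46.4% of the counts of the 9 genes.

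Olah, which releases medium-chain fatty acids from fatty acid synthase, was among the scarcest of the 9 in luminal cells of virgin mice and rose steeply in pregnancy. Its counts were 45 and 140 in luminal virgin libraries, or 1.61 and 4.73 CPM, then 93.6 and 136 CPM in pregnant and 609 and 529 CPM in lactating libraries. It rose by 5.17 (SE 0.33, adjusted p = 1.38e-07) and then by 2.31 (SE 0.27, adjusted p = 1.91e-05). The virgin libraries differed 2.93-fold from each other, and without virgin replicate 2 the pregnancy step was 6.15 and the total change 8.46, against 7.47 with it.

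Of the regulators, Thrsp had the largest total change of the 9 and Srebf1 a small one. Thrsp had 49 and 117 counts in luminal virgin libraries, or 1.76 and 3.95 CPM, then 367 and 317 CPM in pregnant and 1747 and 2247 CPM in lactating libraries. It rose by 6.90 (SE 0.37, adjusted p = 3.66e-08) and then by 2.55 (SE 0.29, adjusted p = 1.47e-05), a total of 9.44. Without virgin replicate 2 the pregnancy step of Thrsp was 7.60 and the total 10.15. Srebf1 was at 159 and 164 CPM in luminal libraries of virgin mice, 341 and 281 in those of pregnant mice, and 641 and 1128 in those of lactating mice. It rose by 0.95 (SE 0.25, adjusted p = 0.00814) and then by 1.51 (SE 0.25, adjusted p = 3.60e-04), a total of 2.46. The lactating libraries of Srebf1 lay far apart, and its pregnancy step was no longer called without luminal pregnant replicate 1 (0.80, adjusted p = 0.0557).

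The genes differed in how the rise was split between the 2 steps. The pregnancy step made up 73.0% of the total log2 change for Thrsp, 69.1% for Olah, 68.1% for Acaca and 53.3% for Fasn. It made up 42.2% for Acly, 40.3% for Acss2, 38.6% for Srebf1, 33.1% for Me1 and 16.0% for Slc25a1. A comparison of the 2 steps, chosen after the counts had been seen, tested the lactation step minus the pregnancy step in the same edgeR fit. The lactation step was larger for 3 genes (background, 18.5%), which were Slc25a1 (difference 3.34, SE 0.24, adjusted p = 9.07e-07), Me1 (1.06, SE 0.25, adjusted p = 0.00492) and Acss2 (0.83, SE 0.23, adjusted p = 0.0134). It was smaller for 3 genes (background, 20.5%), which were Thrsp (-4.35, SE 0.49, adjusted p = 2.65e-05), Olah (-2.86, SE 0.47, adjusted p = 4.44e-04) and Acaca (-1.65, SE 0.31, adjusted p = 0.00110). No difference was called for Acly (0.66, adjusted p = 0.0552), Fasn (-0.34, adjusted p = 0.367) or Srebf1 (0.56, adjusted p = 0.337). The difference of Acly was called with another scaling, RLE size factors (0.73, adjusted p = 0.0407), and by DESeq2 (0.73, adjusted p = 0.0137). It was also called with no filter (0.66, adjusted p = 0.0416) and in some fits that left out 1 library. Without luminal pregnant replicate 1, only Slc25a1 of the 3 with a larger lactation step was still called (Me1, 0.75, adjusted p = 0.0656, and Acss2, 0.83, adjusted p = 0.0660). Acss2 was also lost without luminal pregnant replicate 2 (0.88, adjusted p = 0.0565) and with the library total alone (0.48, adjusted p = 0.173). The value of Acaca ranged from -2.28 without luminal pregnant replicate 1 to -0.79 without replicate 2. Olah stood at -3.84 without luminal virgin replicate 2 and at -2.24 without luminal pregnant replicate 2, and Thrsp at -5.06 without luminal virgin replicate 2, with all 3 calls kept.

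**Figure D2:**
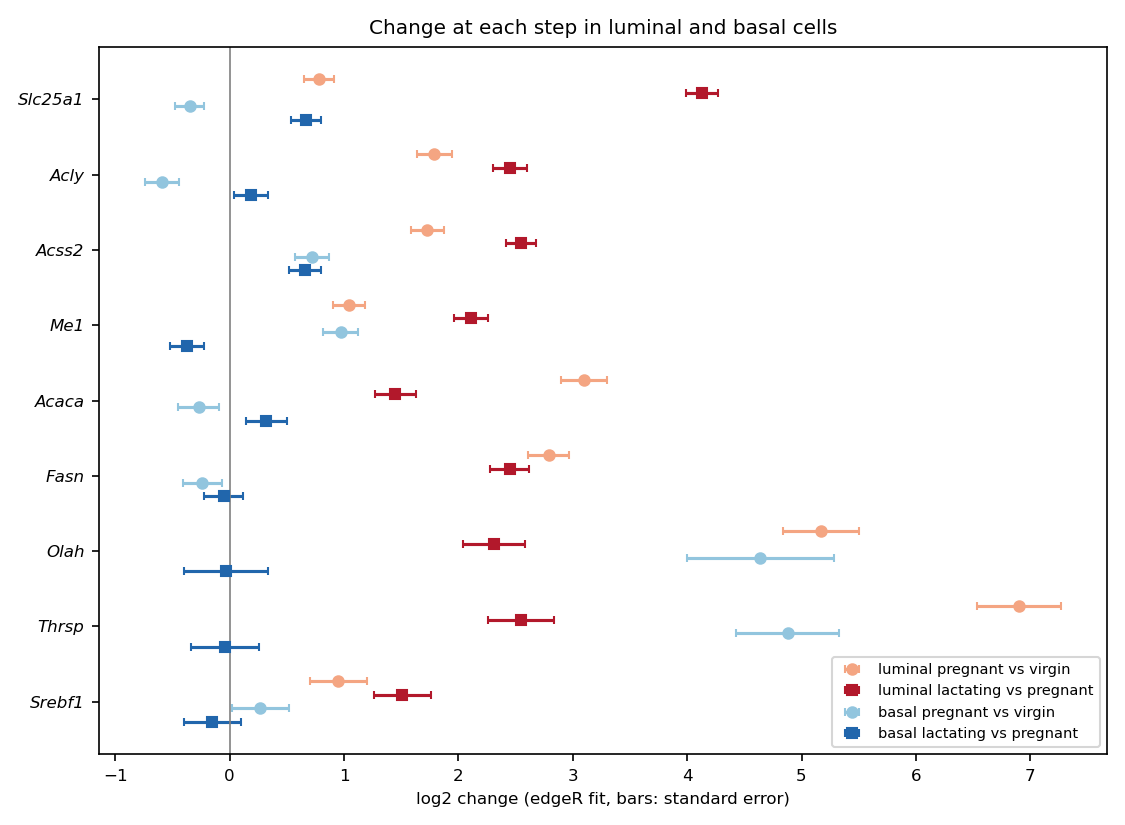
Fitted log2 change of each gene at the pregnancy step (pale) and the lactation step (dark) in luminal (red) and basal (blue) cells, with bars of 1 standard error. Luminal changes are all positive, from 0.78 to 6.90, and the largest basal changes are the pregnancy steps of Olah (4.64) and Thrsp (4.88). The other basal steps lie between -0.59 (Acly, pregnancy) and 0.97 (Me1, pregnancy).

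In basal cells the pathway did not rise as a whole. Together the 9 genes took 0.106% and 0.0841% of all basal counts in virgin mice, then 0.0847% and 0.0684% in pregnancy, then 0.0753% and 0.0774% in lactation. From virgin to pregnant, 4 of 9 were called higher (background, 15.6%) and 1 lower (background, 14.4%). From pregnant to lactating, 2 of 9 were called higher (background, 15.7%) and 0 lower (background, 17.4%). From virgin to lactating, 4 of 9 were called higher (background, 23.7%) and 1 lower (background, 23.7%). The 2 of 9 at the lactation step is close to the background share. The median change of the 9 was 0.27, -0.03 and 0.32 in these comparisons, against 0.00, 0.01 and 0.00 over all genes. The first of these medians was -0.02 without basal virgin replicate 2, and the second was 0.19 without basal pregnant replicate 1.

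With TMM scaling, all 12 libraries and the counts as deposited, no change of the chain-building genes or of Srebf1 was called in basal cells. Fasn was at 339 and 276 CPM in basal virgin, 294 and 228 in basal pregnant, and 266 and 239.5 in basal lactating libraries, and its ranges overlapped between neighbouring stages. Acaca was at 72.7 and 66.2, 59.1 and 56.4, and 74.1 and 69.6 CPM at these stages, and Srebf1 at 157 and 101, 175 and 135, and 128 and 151 CPM. The changes of these 3 ran from -0.27 to 0.32 over the 2 steps. The basal libraries of Acaca did not overlap between neighbouring stages. Its lactation change (0.32, SE 0.18, adjusted p = 0.212) passed the threshold in the fits that left out either luminal pregnant library. From virgin to lactating the basal libraries of Fasn did not overlap, with a change of -0.28 (SE 0.17, adjusted p = 0.181). That fall was called with the library total alone (-0.49, adjusted p = 0.0283). It was also called with a library total counted without the milk genes (-0.49, adjusted p = 0.0300). Acly fell in pregnancy, from 243 and 207 CPM in basal virgin to 150.2 in both basal pregnant libraries (-0.59, SE 0.15, adjusted p = 0.00918), and was at 178 and 165 CPM in basal lactating libraries (-0.39 against virgin, SE 0.15, adjusted p = 0.0405). The fall of Acly in pregnancy was not called without basal virgin replicate 1 (-0.47, adjusted p = 0.0726) or without basal pregnant replicate 2 (-0.59, adjusted p = 0.0534), and the difference in lactation was not called without any 1 of 5 basal libraries (-0.27 to -0.45, adjusted p = 0.0523 to 0.220).

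Acss2 and Me1 rose in basal cells by modest amounts. Acss2 climbed through both steps, from 6.47 and 5.68 CPM in basal virgin to 10.7 and 9.27 in pregnant and 14.3 and 17.2 in lactating libraries (1.38 from virgin to lactating, SE 0.14, adjusted p = 1.33e-05). It was the 1 gene of the 9 whose basal libraries kept the order virgin, pregnant, lactating, as did 10.8% of all genes tested. Me1 rose from 10.8 and 13.0 CPM in basal virgin to 21.1 and 25.6 in pregnant libraries (0.97, SE 0.15, adjusted p = 6.12e-04) and was at 19.1 and 17.0 CPM in lactating ones. Its difference between virgin and lactating (0.60, adjusted p = 0.00717) was not called without basal virgin replicate 1 (0.47, adjusted p = 0.0662) or basal lactating replicate 1 (0.51, adjusted p = 0.0609). Slc25a1 was at 29.4 and 23.8, 21.2 and 20.6, and 31.6 and 34.7 CPM at the 3 stages. Its pregnancy change of -0.35 (adjusted p = 0.0631) was not called, but its libraries did not overlap. That fall was called with the library total alone (-0.51, adjusted p = 0.0146) and with a total without the milk genes (-0.50, adjusted p = 0.0143). Slc25a1 then rose at the lactation step (0.67, SE 0.13, adjusted p = 0.00251), and lactating against virgin was not called (0.32, adjusted p = 0.0638).

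Olah and Thrsp rose in basal libraries from a few counts. Olah had 3 and 5 counts in basal virgin, 103 and 89 in basal pregnant, and 91 and 70 in basal lactating libraries (4.64 at the pregnancy step, SE 0.64, adjusted p = 2.27e-04). Thrsp had 11 and 15 counts in basal virgin, 498 and 234 in basal pregnant, and 276 and 327 in basal lactating libraries (4.88, SE 0.45, adjusted p = 1.28e-05). Milk protein RNA moved with both genes in the basal libraries. It took 0.00952% and 0.0142% of basal counts in virgin mice, then 0.619% and 0.409% in pregnancy, then 0.522% and 0.512% in lactation, or between 1.11% and 3.51% of its luminal level of the same stage. Luminal counts scaled by that ratio would equal 64.8% to 96.5% of the basal Olah counts in pregnancy and lactation and 56.1% to 94.5% of the basal Thrsp counts. For the other 7 genes they would equal 3.20% to 32.4%. With these counts subtracted, the Olah call was lost (3.07, adjusted p = 0.0771, in pregnancy and 2.16, adjusted p = 0.243, in lactation, both against virgin), and the Thrsp call was kept (3.66, adjusted p = 0.00549, and 2.48, adjusted p = 0.0434). Subtraction also brought other basal changes past the threshold. At the pregnancy step these were falls of Acaca (-0.71, adjusted p = 0.0155) and Slc25a1 (-0.41, adjusted p = 0.0401). At the lactation step Acaca then rose (0.55, adjusted p = 0.0469), and from virgin to lactating Fasn fell (-0.64, adjusted p = 0.0109). The subtraction assumes that basal cells make no milk protein RNA of their own, which was not tested.

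**Figure D3:**
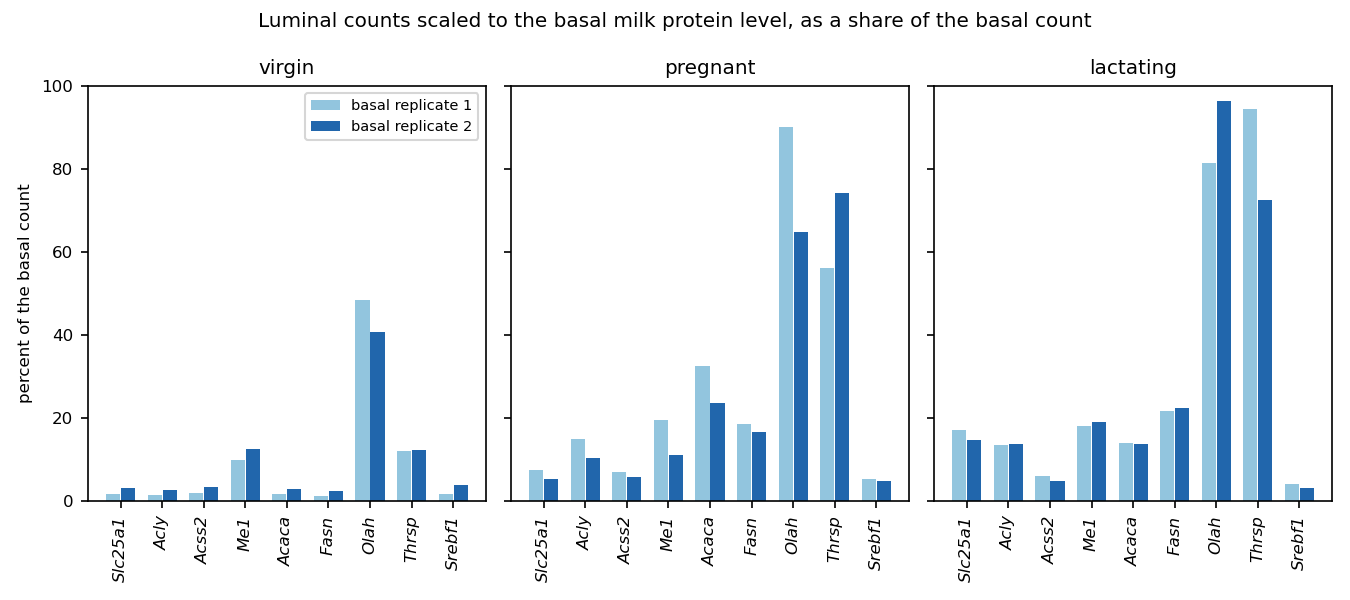
Luminal counts of each gene scaled to the basal milk protein level of the same stage, as a percent of the basal count (linear axis from 0), for the 2 basal libraries of each stage. In pregnancy and lactation the bars of Olah and Thrsp reach 56.1% to 96.5%, and those of the other genes stay at 32.4% or below.

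Fat cells also use this pathway, and part of the adipocyte marker list moved with stage in basal libraries. The 12 markers summed to 205 and 329.6 CPM in basal virgin, 361 and 517 in basal pregnant, and 479 and 465 in basal lactating libraries, against 47.9 to 112 CPM in luminal libraries. Between 10 and 12 of the 12 had a count in a basal library. The sum rested on Lep, Plin4, Slc2a4 and Fabp4, and of these Fabp4 did not rise. It was at 137 and 258 CPM in basal virgin, 93.2 and 166 in basal pregnant, and 109 and 116 in basal lactating libraries. Lipe was at 9.56 and 14.2 CPM in basal virgin and at 4.35 and 5.06 in basal lactating libraries. Adipoq (3 and 3 counts in virgin, 7 and 7 in lactating) and Plin1 (5 and 7, 11 and 2) were near 0. Cfd and Retn were at 0 in some basal libraries. Markers of other cell types moved with stage too. The 7 fibroblast markers summed to 193 to 275 CPM in basal virgin, 664 to 853 in basal pregnant and 426 to 492 in basal lactating libraries, and the 7 endothelial markers to 202 to 328, 86.1 to 107 and 98.7 to 117. In luminal virgin, pregnant and lactating libraries the fibroblast markers summed to 239 to 385, 52.6 to 75.1 and 119 to 129.8 CPM, and the endothelial markers to 46.5 to 70.9, 16.9 to 18.2 and 20.3 to 23.2. The fibroblast sums rested largely on Dcn, at 54.2 and 89.0 CPM in basal virgin and 434 and 579.9 in basal pregnant libraries. In luminal virgin libraries Dcn was at 346 and 169.9 CPM. From basal virgin to basal pregnant libraries Col3a1 also rose, from 46.9 and 69.8 to 118 and 135 CPM. Over the same step Dpt fell from 6.92 and 6.24 to 2.66 and 2.51 CPM, and Pdgfra went from 3.09 and 5.07 to 2.73 and 2.92. All 7 markers of each list had a count in every library. The part of these cells in the values of the 9 genes was not tested.

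Basal cells had lower levels of the whole pathway in pregnancy and lactation. In virgin mice 3 of 9 genes were called lower in basal cells (background, 31.2%), which were Me1 (-2.48, SE 0.16, adjusted p = 2.66e-08), Olah (-4.41, SE 0.65, adjusted p = 7.25e-05) and Thrsp (-2.59, SE 0.53, adjusted p = 9.00e-04). With the library total alone 5 of 9 were called lower, with Slc25a1 (-0.36, adjusted p = 0.0355) and Acss2 (-0.48, adjusted p = 0.0244) added. Olah and Thrsp rested on few counts, and without luminal virgin replicate 2 their differences were -3.43 and -1.88. Fasn was at 281 and 240.3 CPM in luminal and 339 and 276 in basal virgin libraries, and Acaca at 73.7 and 76.4 and at 72.7 and 66.2. In pregnant mice 9 of 9 were called lower in basal cells (background, 33.9%), from 2.01-fold for Srebf1 to 30.7-fold for Olah. In lactating mice 9 of 9 were again called lower (background, 35.4%), from 6.35-fold for Srebf1 to 156-fold for Olah, with a median log2 difference of -4.80 against 0.08 over all genes. Fasn was 39.1-fold, Me1 32.8-fold, Slc25a1 27.9-fold and Acly 24.0-fold lower in basal than in luminal cells of lactating mice. On the log2 scale these 4 differences were -5.29, -5.04, -4.80 and -4.59, and with the library total alone -4.29, -4.04, -3.81 and -3.59. That scaling put the 9 genes between -1.67 (Srebf1) and -6.29 (Olah). With the luminal counts subtracted from the basal libraries, the lactation differences of Olah and Thrsp went from -7.28 and -7.19 to -10.35 and -9.70, and those in pregnancy from -4.94 and -4.61 to -7.13 and -5.98.

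The difference between the luminal and the basal change was tested in the same fit. At the pregnancy step the luminal change was larger for 6 of 9 genes (background, 14.0%). It was largest for Acaca (3.37, SE 0.27, adjusted p = 2.35e-06), Fasn (3.03, SE 0.24, adjusted p = 2.35e-06) and Acly (2.38, SE 0.21, adjusted p = 5.18e-06). Thrsp (2.01, SE 0.71, adjusted p = 0.0492) lay at the threshold, and its adjusted p ranged from 0.00243 to 0.252 over the alternatives, with the call lost without any 1 of 10 of the 12 libraries. No difference was called for Me1 (0.08, SE 0.21, adjusted p = 0.827), which rose in both cell types, for Olah (0.53, SE 1.14, adjusted p = 0.775), whose basal counts are low, or for Srebf1 (0.68, SE 0.35, adjusted p = 0.172). In a fit that took libraries of 1 stage with equal replicate numbers as coming from 1 mouse, a pairing that the labels do not state, the difference of Srebf1 was called (0.65, SE 0.22, adjusted p = 0.0369). At the lactation step the luminal change was larger for 9 of 9 genes (background, 18.3%), from 1.14 for Acaca (SE 0.26, adjusted p = 0.00438) to 3.46 for Slc25a1 (SE 0.19, adjusted p = 4.06e-07). With the library total alone, 7 of the 9 were called, without Acaca (0.35, adjusted p = 0.215) and Srebf1 (0.85, adjusted p = 0.0630).

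Divided by gene length, the levels showed which messages were the most abundant. In virgin luminal cells Acly led with 49.0 CPM per kilobase, followed by Srebf1 with 37.5 and Fasn with 26.2, while Thrsp, Acss2 and Olah lay at 2.75, 2.68 and 2.10 and could not be ordered. In pregnant luminal cells Thrsp led with 329.6 CPM per kilobase, and Fasn (182) and Acly (169.7) overlapped. In lactating luminal cells Thrsp led with 1924, Fasn (993) and Acly (929) overlapped, and Slc25a1 (552) and Olah (377) came next. Srebf1 (206) and Acaca (195) overlapped, and Me1 (166) and Acss2 (52.2) were lowest. In basal lactating cells Acly (38.7), Srebf1 (32.4) and Fasn (25.4) led and Olah (2.42) was last. These values use the lengths deposited beside the counts, and the lead of Thrsp rests on its deposited length of 1038 bases. With the exon bases of GENCODE, chosen after the values were seen and 2189 for Thrsp, Fasn (165), Thrsp (156) and Acly (142) came first in pregnant luminal cells, with neighbours in that order overlapping. In lactating luminal cells the libraries of Thrsp (912), Fasn (901) and Acly (779) then overlapped, and Acss2 (14.6) was still the lowest. Me1 (154) then lay above Acaca (103), without overlap. In virgin luminal cells Acss2 (0.748) was then last, below Olah (1.79) and Thrsp (1.30). In basal lactating cells Acly (32.5) still led and Srebf1 (24.7) and Fasn (23.1) overlapped. There Acss2 (1.55) and not Olah (2.06) was last, without overlap. The GENCODE exon bases pool all transcripts of a gene, and for Acss2 they came to 10163 against a deposited length of 2833. Whether reads were counted over all of these bases is not given, so the second set of orders cannot test the first.

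**Figure D4:**
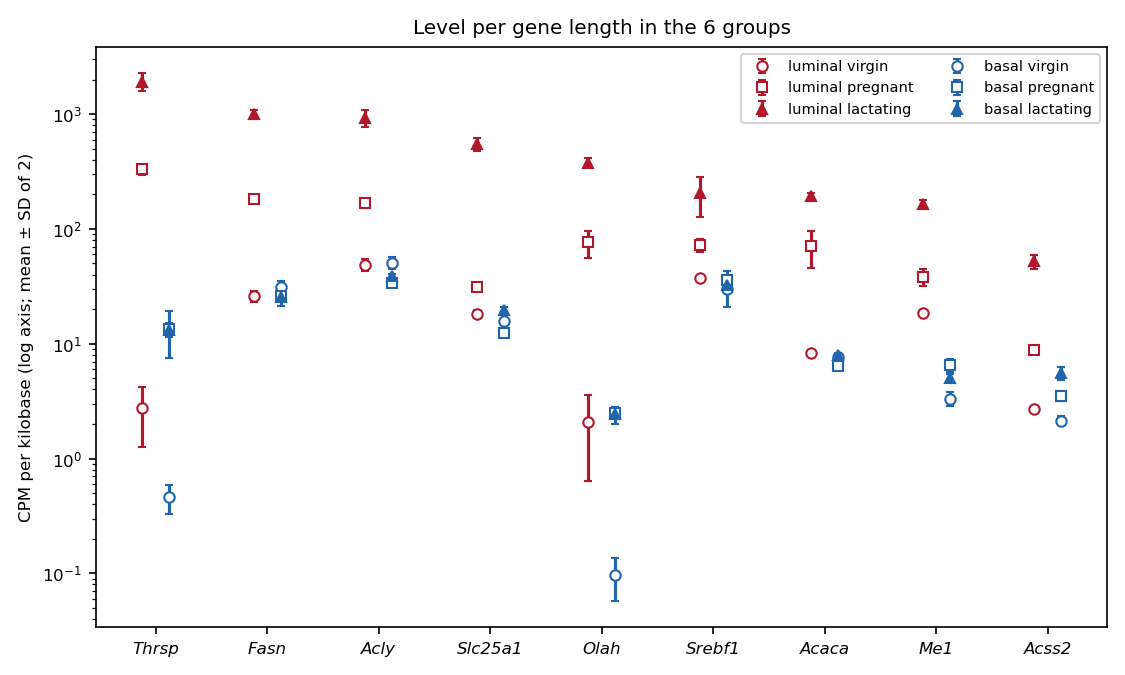
Mean level per kilobase of gene length (log axis) of the 9 genes in the 6 groups, with bars of 1 SD of 2 libraries. With the deposited lengths used here, Thrsp is the highest of the 9 in lactating luminal cells (1924 CPM per kilobase) and Acss2 the lowest (52.2).

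Genes that stand around the pathway were read from 6 lists with 54 entries, all of which were tested. Among 12 genes of NADPH and citrate supply, 9 rose and 0 fell from virgin to pregnant luminal cells (background, 21.8% of all genes higher and 24.1% lower), and 8 rose and 0 fell from pregnant to lactating (background, 23.7% and 24.6%), with medians of 1.23 and 1.09 against -0.04 and 0.00 over all genes. Pcx, pyruvate carboxylase, rose by 4.68 from virgin to lactating, Pdhb, a subunit of pyruvate dehydrogenase, by 2.99, and Tkt, the transketolase of the pentose phosphate pathway, by 2.58. G6pdx, which starts that pathway, was higher in lactation than in virgin mice by 1.31 with TMM scaling, and with the library total alone it stood at -0.05. With that scaling the list held 8 higher and 2 lower genes in pregnancy, and 5 higher and 4 lower in lactation. The counts of the other lists below are read against the same background shares, and each is given with the library total alone too.

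The acyl-CoA list held 9 genes that make or use acyl-CoA after fatty acid synthesis. Of these, 5 rose and 1 fell at the pregnancy step, and 7 rose and 1 fell at the lactation step. The library total alone gave 5 higher and 4 lower, then 6 higher and 2 lower. Scd1, a stearoyl-CoA desaturase, rose from a mean of 326 CPM in virgin to 21465 CPM in lactating luminal cells (6.04), and Acsl1, an acyl-CoA synthetase, from 44.7 to 2689 CPM (5.91). Scd2, another desaturase, fell by 0.86 at the pregnancy step (adjusted p = 0.0130) and then rose by 4.59. Acsl3, a further acyl-CoA synthetase, fell by 1.27 at the lactation step (adjusted p = 2.64e-06).

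In the list of 10 genes that control acetyl-CoA carboxylase, 5 were higher and 2 lower in pregnancy, and 3 were higher and 3 lower in lactation, the latter near the background of 23.7% and 24.6%. The library total alone gave 3 higher and 5 lower, then 2 higher and 7 lower. Acacb, the carboxylase isoform of the mitochondrial surface, rose by 1.67 and then by 4.32, to a mean of 518 CPM in lactating luminal cells. The catalytic subunits of AMP-activated protein kinase, which inhibits the carboxylase, moved in opposite directions. Prkaa2 rose by 3.66 and Prkaa1 fell by 2.21 from virgin to lactating, and the regulatory subunit Prkab2 fell by 1.47. Prkab1 fell by 0.26 at the lactation step (adjusted p = 0.0394), a call lost with RLE size factors (-0.19, adjusted p = 0.127). Mid1ip1, a relative of Thrsp, fell by 0.86 at the pregnancy step and rose by 1.27 at the lactation step, a rise not called with the library total alone (0.41, adjusted p = 0.0708). Its total change of 0.41 became -0.95 with the library total alone and -0.07 with a library total counted without the milk genes.

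In the SREBP list of 6 genes, 2 rose and 3 fell in pregnancy, and 3 rose and 0 fell in lactation. The library total alone turned these counts to 0 higher and 4 lower, then 1 higher and 3 lower. Insig1, which retains SREBP in the endoplasmic reticulum, rose by 0.69 and then by 4.11, to a mean of 480.4 CPM. Insig2, which does the same, fell by 0.76 and then rose by 0.98. With the library total alone, neither the pregnancy rise of Insig1 (0.19, adjusted p = 0.467) nor the lactation rise of Insig2 (0.14, adjusted p = 0.400) was called. Scap, the SREBP escort, was 1.22 higher in lactating than in virgin luminal cells with TMM scaling and -0.14 with the library total alone. Srebf2, the sterol-directed relative of Srebf1, fell by 0.51 and the protease gene Mbtps1 by 0.42 from virgin to lactating.

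Of 8 other lipogenic transcription factors, 4 were called higher and 1 lower in pregnancy, and 2 higher and 3 lower in lactation, where 2 of 8 is near the background of 23.7%. The library total alone gave 0 higher and 2 lower, then 1 higher and 4 lower, and RLE size factors 3 higher and 1 lower in lactation. Mlx, the partner of the carbohydrate response factor, rose by 1.94 and Rxra by 1.84 from virgin to lactating. Pparg, the adipogenic receptor, fell by 1.90 in pregnancy, from a mean of 1.76 to 0.470 CPM (adjusted p = 0.00551). The liver X receptor genes fell at the lactation step, Nr1h3 by 1.06 (adjusted p = 0.0399) and Nr1h2 by 0.57 (adjusted p = 9.16e-04), and Usf2 fell by 0.31 (adjusted p = 0.0484). With RLE size factors the falls of Nr1h3 (-0.99, adjusted p = 0.0543) and Usf2 (-0.24, adjusted p = 0.119) were not called. Among 9 isoforms and mitochondrial counterparts, 3 rose and 3 fell in pregnancy, and 3 rose and 0 fell in lactation. The library total alone gave 1 higher and 6 lower, then 3 higher and 4 lower. Acss1, the mitochondrial acetyl-CoA synthetase, rose by 2.90 from virgin to lactating. Me3 and Oxsm, of the mitochondrion, fell by 1.73 and 0.93 and then rose by 2.60 and 2.20. Their totals of 0.87 and 1.27 became -0.49 and -0.09 with the library total alone. Hsd17b8, of the mitochondrial fatty acid route, fell by 0.34 in pregnancy (adjusted p = 0.0214).

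The same lists were counted in basal cells, against backgrounds of 15.6% of all genes higher and 14.4% lower at the pregnancy step and 15.7% and 17.4% at the lactation step. The NADPH and citrate list had 8 genes higher and 1 lower in basal cells from virgin to pregnant (median 0.50), and 1 higher and 3 lower from pregnant to lactating (median -0.19). With the library total alone these were 5 and 1, then 1 and 3. The acyl-CoA list had 2 higher and 1 lower, then 4 higher and 1 lower (2 and 2, then 4 and 1, with the library total). Among the transcription factors 0 of 8 were called at the pregnancy step, and 4 were higher and 0 lower at the lactation step (0 and 1, then 2 and 0). The carboxylase list had 2 higher and 1 lower, then 5 higher and 1 lower (1 and 1, then 2 and 1). The SREBP list had 1 higher and 1 lower, then 3 higher and 0 lower (0 and 2, then 3 and 0), and the list of isoforms 2 higher and 0 lower, then 1 higher and 1 lower (1 and 0, then 1 and 1).

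Most of the 9 genes had 6-group profiles near a common shape, and Olah and Thrsp lay far from it. Distance was the root mean square difference, on log2(CPM + 1) centred over the 6 groups, from the median profile of the 9. Fasn (0.25), Acaca (0.26) and Acly (0.27) lay nearest to it, then Acss2 (0.62), Slc25a1 (0.66), Me1 (0.68) and Srebf1 (0.85), and Olah (1.47) and Thrsp (2.04) lay farthest. Among all 15969 genes ranked by this distance, Srebf1 ranked 226, Olah 2450 and Thrsp 10690. Each of the 9 also helped to set the median from which its distance was taken. The 8 other genes nearest to it were Fam13a (0.20), Vstm5 (0.21), Sgk2 (0.24), Duox1 (0.25), Ttc25 (0.27), F5 (0.27), Mocs1 (0.27) and Tmem120b (0.28). Fam13a, as an example, had means of 9.67, 53.4 and 275 CPM in virgin, pregnant and lactating luminal cells and of 9.44, 9.69 and 13.8 CPM in basal cells. When the 3 luminal groups alone were used, 1 of these 8 (F5) was still among the nearest 8. The likeness is a description over 6 group means.

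**Figure D5:**
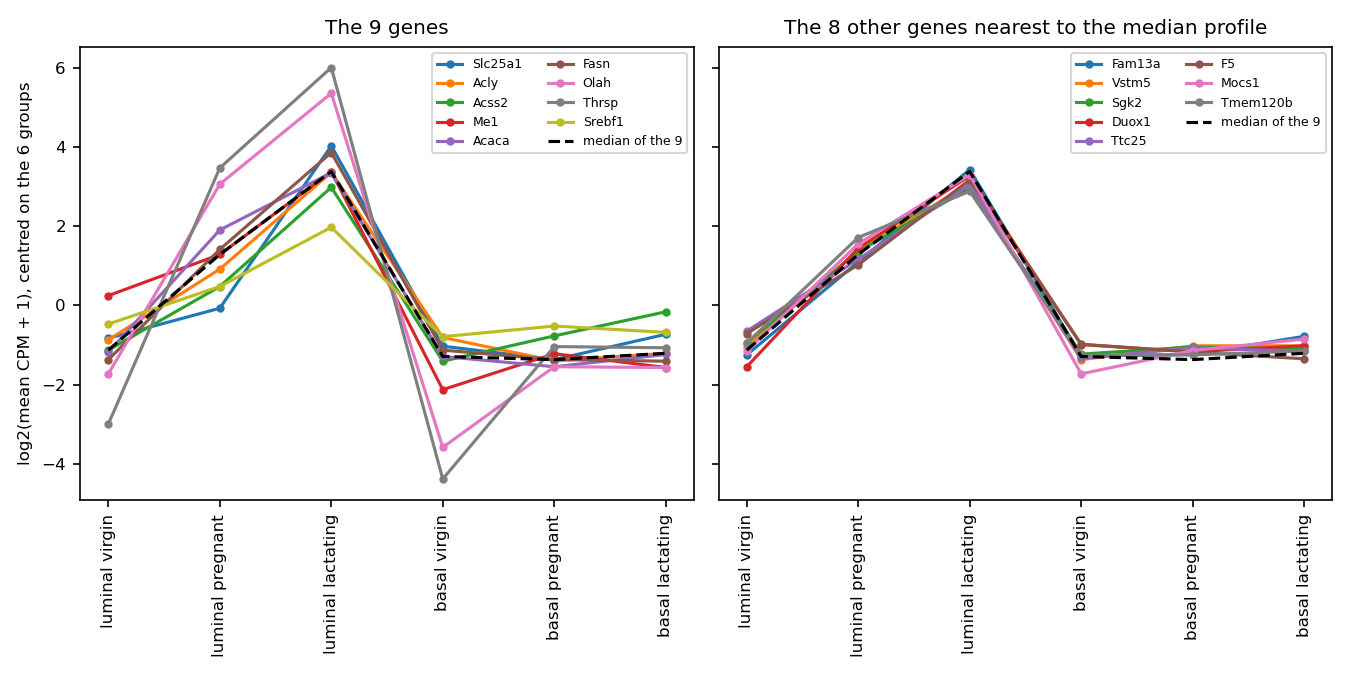
Left, centred log2(mean CPM + 1) of the 9 genes over the 6 groups with their median (dashed); right, the 8 other genes nearest to that median. Thrsp and Olah swing the most, and the 8 genes at the right lie within 0.20 to 0.28 (root mean square) of the median.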

How the data were processed

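The deposited table and single-library files hold raw read counts per Entrez gene identifier, with no normalisation applied by the authors, per the file headers and values. A gene length was deposited beside the counts, and values per kilobase divide by it. The submitters' processing notes list CASAVA 1.8.2, Subread 1.4.4 and featureCounts, together with GRCm38 and mm10 as builds, and state no role for any of them. Whether counting used strand, how multiply placed reads were treated and which annotation was used is not given in the sources used here. Between the 12 single files and the table, 0 counts differed. A symbol from RefSeq (GRCm38.p6) matched 25275 identifiers, and the 1904 others (0.54% to 1.37% of a library's counts) stayed in the tests. Promoter sequences are RefSeq's, and exon overlap and near copies (at least 90% identity over 100 bases) were computed from GENCODE vM21.

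Library totals were 20.02 M to 24.72 M counts. filterByExpr (minimum count 10, by group) kept 15969 genes. Counts with TMM factors were compared by edgeR 4.0.16 (R 4.3.3), in a single model of the 6 groups and all 12 libraries with 6 residual degrees of freedom (quasi-likelihood F-test). P-values were adjusted by Benjamini-Hochberg over all genes tested, with calls made below 0.05. All changes and SEs are on the log2 scale, and each SE is the size of the change over the root of F. Every adjusted p is from this test unless another is named. Levels are TMM-scaled CPM. The scripts were tested on simulated data.

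The 9 genes, the lists and the markers were chosen with earlier results of these data known. The 9 were named in every comparison. From each list of other pathway genes, the text names up to 3 called genes with the largest change over the luminal comparisons and those called in the opposite direction, and G6pdx was added after its values were seen. The comparison of the 2 luminal steps, the lists under other scalings, levels per GENCODE exon bases and a second pairing check were added after the data were seen. Alternatives were other scalings, DESeq2 1.42.0, no filter, a replicate block, fits within a cell type, subtraction of luminal counts from basal libraries, and leaving out each library.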

Additional observations from a re-analysis of the deposited data

Results flagged for a closer look

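The luminal change exceeded the basal change, by the test of the difference itself, for 6 of the 9 genes at the pregnancy step and for all 9 at the lactation step (edgeR, adjusted p below 0.05, background 14.0% and 18.3% of all genes). Positive values mean a larger luminal change on the log2 scale. At the pregnancy step the differences were 1.13 for Slc25a1, 2.38 for Acly, 1.01 for Acss2, 3.37 for Acaca, 3.03 for Fasn and 2.01 for Thrsp. At the lactation step they were 3.46 for Slc25a1, 2.26 for Acly, 1.89 for Acss2, 2.48 for Me1, 1.14 for Acaca, 2.50 for Fasn, 2.34 for Olah, 2.58 for Thrsp and 1.66 for Srebf1. The call of Thrsp at the pregnancy step (adjusted p = 0.0492) was lost without any 1 of 10 of the 12 libraries. With the library total alone, Thrsp at the pregnancy step (1.66, adjusted p = 0.0920) and Acaca (0.35, adjusted p = 0.215) and Srebf1 (0.85, adjusted p = 0.0630) at the lactation step were not called. Milk protein RNA rose in the luminal libraries over the same steps, and cell type and lane cannot be told apart. The part of either in these differences was not tested.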

How the results depend on the processing

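Across the alternatives listed under the processing, 1900 values of single genes kept their side of the threshold, of which 1875 kept their direction and 25 uncalled ones changed sign. Another 31 lost a call, 22 gained one and none of the called changes reversed its sign; for the added comparison of the 2 luminal steps 160 kept their side and direction, 4 lost a call and 7 gained one. In the count of genes called lower in basal pregnant against virgin cells (1), the library total alone gave 2, a total without milk genes 2 and the subtraction of luminal counts 3, and leaving out 1 library gave 0 to 2. For basal lactating against pregnant (0 lower), the library total and the total without milk genes each gave 1. For basal lactating against virgin (1 lower), these gave 2 and 2, the subtraction 2 and RLE size factors 0, and leaving out 1 library gave 0 to 1. For basal against luminal virgin cells (3 lower), the library total and the total without milk genes each gave 5. The number of genes with a larger luminal lactation step than pregnancy step (3) was 1 to 4 when 1 library was left out, and 1 without luminal pregnant replicate 1. The cause of these moves was not tested.

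Of all genes, with the library total alone, 1215 were called higher and 8425 lower at the luminal pregnancy step (3488 and 3849 with TMM), 1013 and 9583 at the luminal lactation step (3781 and 3935), 931 and 12495 from virgin to lactating luminal cells (4262 and 5350), and 10205 and 2529 in basal against luminal lactating cells (6253 and 5661). In basal cells it gave 1647 and 3485 at the pregnancy step (2491 and 2304) and 2439 and 5201 from virgin to lactating (3791 and 3788). For the difference of the changes it gave 1009 and 4614 in pregnancy (2242 and 2666) and 1012 and 7920 in lactation (2918 and 2869).

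The labels number the libraries 1 and 2 in each group. Same-numbered luminal and basal libraries deviated together over 15969 genes with r = 0.162 (virgin), 0.198 (pregnant) and 0.061 (lactating), and at 0.251, 0.325 and 0.156 over the 9193 genes with a mean of at least 10 CPM. Groups of different stages gave r from -0.120 (basal virgin and lactating) to 0.077 (basal virgin and pregnant) over the 15969 genes. The 2 gene sets fall on different sides of 0.1 in lactation and no label states a pairing. Whether the numbers mark mice is therefore undecided, and the fit without the block is given. With 2 mice per stage, luminal and basal libraries of a stage may share mice, and that fit treats all 12 libraries as independent. A replicate block for the number ended the call of Thrsp in the pregnancy difference (2.01, adjusted p = 0.0564) and changed no other call of the 9 genes. A replicate block by mouse gained Acss2 in basal against luminal virgin cells (-0.33, adjusted p = 0.0348) and Srebf1 in the pregnancy difference (0.65, adjusted p = 0.0369). With n = 2 a group's own spread is barely measured, and the fit shares 1 estimate over all 6.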
